A study of Drosophila melanogaster with 8 samples.

Results

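The thin filament of striated muscle is described here through 9 genes of the adult Drosophila heart, namely the actins Act79B, Act87E and Act88F, the tropomyosin Tm2, the troponin T gene up, the troponin C genes TpnC41C, TpnC73F and TpnC4, and tmod. The members were chosen by name: each is represented by the probe set that carries its symbol alone in the platform annotation, and by the one with the highest mean over the 8 arrays where there are several. All 9 were found, among 11982 genes with such a probe set, and they hold 11 probe sets in all, since TpnC73F and tmod have a pair each. Hearts were profiled on 8 Affymetrix GeneChip arrays in 4 groups of 2. Flies of the GMH5 line, which carries a Gal4 driver active in the heart, were crossed to yw, the control, or to FOXO, and hearts were taken at 1 week and at 5 weeks. The driver is thus present in all 4 groups, and FOXO, the transcription factor downstream of insulin signalling, is the added factor. The labels call all samples adult and female, with fat and pericardial cells sucked off the heart tube before RNA extraction.

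In striated muscle, actin filaments are anchored at the Z-disc and carry tropomyosin and the troponin complex along their length. Calcium binds troponin C, troponin T ties the complex to tropomyosin, and the movement of tropomyosin lets myosin reach actin. Tropomodulin caps the pointed end of the filament and sets its length. Flies have several actin and troponin C genes that are used in different muscles: Act88F and TpnC4 are the flight muscle forms, Act79B is used in leg and jump muscles, Act87E in larval and abdominal muscles, and TpnC41C in jump and abdominal body wall muscles. The adult heart tube carries, besides its cardiomyocytes, a ventral layer of longitudinal muscle fibres.

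Values are log2 signal, so that 1 unit is a doubling of signal, and levels are compared within a probe set only. The pair of FOXO arrays at 1 week stood apart: 2235 of 18769 probe sets differed by more than 1 between these replicates, against 17 to 93 in the other groups. Some arrays went against the label female. The 5 female-specific transcripts (yolk proteins and pheromone enzymes) had a median of 6.75 and 6.59 on the control 1 week arrays and of 6.18 on FOXO 1 week replicate 2, and of 13.03 to 13.44 on the other 5 arrays. Late spermatogenesis transcripts (13 measured) reached 9.26 and 9.31 on the control 1 week arrays and 10.44 and 10.10 on those of FOXO 5 weeks, with 5.00 to 6.63 on the other 4, and the median of 6 oocyte and nurse cell transcripts was 10.70 on a single array, FOXO 1 week replicate 1, and at most 6.05 on the rest. In control hearts the ages thus also differ in female-specific and late spermatogenesis transcripts. Age and these differences cannot be told apart there. In FOXO hearts the late spermatogenesis transcripts separate the ages too, with the old arrays high, and they separate the crosses at each age. The part of these transcripts in the results below was not tested. Of 7 heart factors 6 were measured: Hand lay between 13.04 and 13.33, mid between 6.90 and 8.69, H15 between 9.61 and 11.10, tup between 9.29 and 10.47, pnr between 6.56 and 7.37 and svp between 9.72 and 11.24. Of the 4 flight muscle markers fln lay between 2.97 and 3.51 and salm between 8.12 and 10.27, and Act88F and TpnC4 are given with the members. The labels name fat and pericardial cells as removed, yet some transcripts of such cells gave strong signal on all 8 arrays. Fat body and oenocyte markers read 13.18 to 13.52 (apolpp), 13.25 to 13.45 (FASN1) and 12.33 to 13.08 (Apoltp). Lsp2 read 7.62 to 10.46 and Fbp1 3.98 to 5.02. Nephrocyte markers read 12.33 to 12.67 (Cubn), 12.14 to 12.38 (Cubn2), 9.18 to 10.43 (sns) and 9.40 to 10.08 (kirre). Their part in the results was not tested. The labels do not say whether replicates are separate batches of flies, so the p-values speak of the spread among these arrays, which could be technical in part.

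TpnC41C was the member with the widest gap between young and old hearts and the one called with age in each cross. Its log2 signal was 7.39 and 7.58 in control hearts at 1 week and 7.68 and 7.58 in FOXO hearts at 1 week. At 5 weeks it was 5.38 and 5.78 in control and 5.48 and 5.54 in FOXO hearts. All 4 young arrays lay above all 4 old arrays, with a gap of 1.61 in control and of 2.04 in FOXO. With age TpnC41C fell by 1.90 ± 0.17 (SE) in control hearts, a signal 3.74-fold lower (limma, adjusted p = 0.000909). In FOXO hearts it fell by 2.12 ± 0.17, a signal 4.34-fold lower (adjusted p = 0.00019).

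The crosses did not differ detectably in TpnC41C at either age. FOXO against control gave 0.15 ± 0.17 at 1 week (adjusted p = 0.729) and -0.07 ± 0.17 at 5 weeks (adjusted p = 0.867), with 95% intervals of -0.26 to 0.56 and -0.48 to 0.35. The difference between its age effects in both crosses was -0.22 ± 0.25 (interval -0.80 to 0.37, adjusted p = 0.617). Ordered by mean, the groups ran from FOXO 1 week (7.63) and control 1 week (7.48) to control 5 weeks (5.58) and FOXO 5 weeks (5.51). The crosses overlapped at 5 weeks, and at 1 week the FOXO arrays lay above the control arrays by a gap of 0.006.

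Some markers of other cell types also differed between young and old arrays. Of 64 marker genes in 11 lists, 9 had all young arrays on one side of all old arrays, beside 11.3% of all probe sets. The gut gene LysX, a lysozyme, read 6.04 to 7.08 on the young arrays and 9.30 to 10.47 on the old ones, and the gut protease gene alphaTry read 5.80 to 6.51 and 7.28 to 8.61. The hemocyte gene Hml was lower on the old arrays (11.41 to 11.66) than on the young ones (11.90 to 12.33). Another hemocyte gene, crq, was higher (11.05 to 11.54 against 10.37 to 10.86). The median of the 6 hemocyte markers was 10.43 to 11.09 on the young arrays and 10.44 to 10.94 on the old ones. The flight muscle factor salm was higher on the old arrays (9.87 to 10.27 against 8.12 to 8.70). Jon65Aiv and kirre were also higher on all old arrays, and mid and Acp53Ea were lower. The median of the 5 gut markers was 5.80 to 6.20 on the young arrays and 6.17 to 7.58 on the old ones. Their part in the TpnC41C result was not tested.

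The age difference of TpnC41C in FOXO hearts was -2.07 without FOXO 1 week replicate 1 and -2.17 without replicate 2. The fall passed the test in both crosses under every alternative tried, with adjusted p of at most 0.0151 in control and 0.00463 in FOXO hearts. In RNA of whole hearts, fewer cells that express a gene and less of its RNA per cell cannot be told apart.

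**Figure D1:**
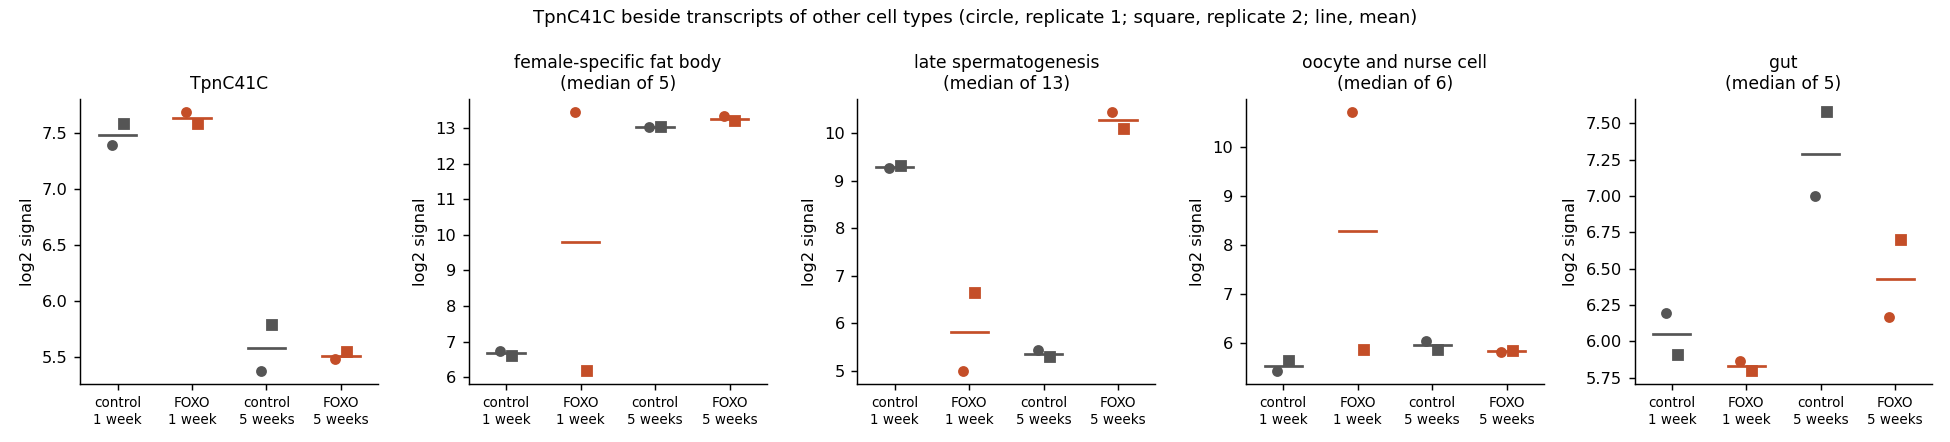
Log2 signal of TpnC41C and the median log2 signal of 4 marker lists on each of the 8 arrays, by group (circle, replicate 1; square, replicate 2; line, group mean; each panel has its own scale). TpnC41C lies between 7.39 and 7.68 on the young arrays and between 5.38 and 5.78 on the old ones, and the gut median lies between 5.80 and 6.20 on the young arrays and between 6.17 and 7.58 on the old ones.

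The other troponin C genes behaved differently. TpnC73F, a form known from larval and adult body wall muscles, read 12.97 and 12.86 in control and 12.66 and 12.76 in FOXO hearts at 1 week, and 12.86 and 12.85 in control and 12.59 and 12.62 in FOXO hearts at 5 weeks. The FOXO values lay just under the control values at each age, and the differences of -0.21 ± 0.13 and -0.24 ± 0.13 did not pass the test (adjusted p = 0.489 and 0.302). The age differences of this probe set, the brighter of the pair, were -0.06 ± 0.13 in control and -0.10 ± 0.13 in FOXO hearts. Their intervals, -0.37 to 0.24 and -0.41 to 0.20, exclude a fall of the size seen in TpnC41C. The dimmer probe set is given below.

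TpnC4, the troponin C of stretch-activated flight muscle, was among the dimmest 40% of probe sets. It read 3.99 and 4.21 in control 1 week, 5.60 and 5.39 in control 5 weeks and 4.63 and 4.17 in FOXO 5 weeks. The FOXO 1 week replicates were 6.48 and 4.38, so that 1 array of this group was the highest of all 8 and the other lay with the low groups. None of its comparisons passed: the age difference was 1.39 ± 0.60 in control (adjusted p = 0.276) and -1.03 ± 0.60 in FOXO hearts (adjusted p = 0.268), and the FOXO difference was 1.33 ± 0.60 at 1 week and -1.10 ± 0.60 at 5 weeks.

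The spread of TpnC4 came from the FOXO 1 week pair, whose SD was 1.48, against 0.14 to 0.33 in the other groups. At 1 week the FOXO difference of TpnC4 was 0.28 without FOXO 1 week replicate 1 and 2.38 without replicate 2, each resting on 1 FOXO array. Without either or both of these arrays the TpnC4 age difference of 1.39 in control passed (adjusted p = 0.00168), as did that of -1.10 between crosses at 5 weeks (adjusted p = 0.00425). FOXO 1 week replicate 1, the array with the high TpnC4 signal, is also the one with oocyte transcripts, and the part of these in the TpnC4 value was not tested.

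Among the actins, Act87E was the steadiest member. Its signal was 11.82 and 11.93 in control 1 week, 11.87 and 11.89 in FOXO 1 week, 12.06 and 11.94 in control 5 weeks and 11.97 and 11.91 in FOXO 5 weeks. The old arrays of each cross lay just above its young arrays, while the crosses overlapped at each age, and the SD over all 8 arrays was 0.07. The 4 pairwise differences lay between -0.06 and 0.13, each with an SE of 0.13, and their 95% intervals together ran from -0.37 to 0.44. The probe set is of the type whose suffix, s_at, marks probes shared by several transcripts, and the actin genes are close copies, so signal from another actin is possible.

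Act79B was uneven in young FOXO hearts. It read 8.83 and 8.91 in control 1 week and 8.37 and 6.53 in FOXO 1 week, then 8.13 and 7.94 in control 5 weeks and 8.24 and 8.28 in FOXO 5 weeks. The lowest value, 6.53, was on FOXO 1 week replicate 2, and the highest were those of control 1 week. These 3 arrays are those with low female-specific transcripts, whose part in the Act79B values was not tested. FOXO against control was -1.42 ± 0.51 at 1 week (adjusted p = 0.25) and 0.23 ± 0.51 at 5 weeks (adjusted p = 0.84).

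The size of the Act79B difference at 1 week rests on which FOXO array is used. It was -2.34 (adjusted p = 0.000112) without FOXO 1 week replicate 1 and -0.50 (adjusted p = 0.046) without replicate 2. Both fits assume that the lone array varies as the other groups do. The age difference in control hearts, -0.84 ± 0.51 (adjusted p = 0.477), passed without either or both FOXO 1 week arrays (adjusted p = 0.00339).

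Act88F, the flight muscle actin, was low throughout and was among the dimmest 40% of probe sets. Its signal was 5.10 and 4.95 in control and 5.13 and 5.24 in FOXO hearts at 1 week, and 5.49 and 5.21 in control and 4.75 and 4.56 in FOXO hearts at 5 weeks. The old FOXO arrays lay under all others. At 5 weeks Act88F fell by 0.70 ± 0.16 in FOXO against control (adjusted p = 0.0364), while at 1 week the difference was 0.16 ± 0.16 (adjusted p = 0.685). The test of the difference between ages gave -0.86 ± 0.23 and did not pass (adjusted p = 0.0668). It passed with quantile normalization (-1.09, adjusted p = 0.0168), with centred medians (-1.36, 0.00741) and without either FOXO 1 week array (0.0356 and 0.0361), and missed the threshold under the others (up to 0.245). Removing any single array other than those of FOXO 1 week ended the call at 5 weeks, with adjusted p from 0.0644 to 0.215. Of the 4 flight muscle markers listed, Act88F and TpnC4 are members themselves; fln read 3.51 and 3.25 in control 5 weeks and 2.97 and 3.15 in FOXO 5 weeks, near the lowest values on the array, and salm read 10.07 and 9.87 against 10.27 and 10.11, and their part in the Act88F result was not tested.

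The structural members of the troponin and tropomyosin strand had small replicate gaps. The troponin T gene up read 13.33 and 13.37 in control 1 week, 13.21 and 13.11 in FOXO 1 week, 12.99 and 13.02 in control 5 weeks and 12.74 and 12.78 in FOXO 5 weeks. These 4 groups did not overlap and ran in that order. The age difference was -0.35 ± 0.13 in control (adjusted p = 0.19) and -0.40 ± 0.13 in FOXO hearts (adjusted p = 0.0804), and the FOXO difference was -0.19 ± 0.13 at 1 week and -0.24 ± 0.13 at 5 weeks (adjusted p = 0.506 and 0.294).

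Over both crosses, a comparison added after the data were seen, up fell with age by 0.37 ± 0.09 (adjusted p = 0.0409). It no longer passed with arrayWeights (adjusted p = 0.0736), with the replicate number as a block (0.0595) or once any single array other than those of FOXO 1 week was removed (up to 0.167). Beside this stand values of RNA integrity, the 3' minus 5' signal of 3 array control genes. Their means were 1.55 and 1.40 in FOXO 5 weeks, 1.46 and 1.09 in control 5 weeks and 0.957 to 1.23 on the young arrays. The same arrays enter every age comparison here, including those of TpnC41C, tmod, sls, Obsc, Actn, sals and mid. The part of these values in any age result was not tested.

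Tm2, the muscle tropomyosin, read 13.24 and 13.18 in control 1 week, 13.07 and 13.18 in FOXO 1 week, 13.05 and 13.04 in control 5 weeks and 12.88 and 12.76 in FOXO 5 weeks. The old FOXO arrays were the lowest, and the young groups overlapped. No comparison of Tm2 passed, the furthest from 0 being the age difference in FOXO hearts, -0.30 ± 0.13 (interval -0.61 to 0.01, adjusted p = 0.165).

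**Figure D2:**
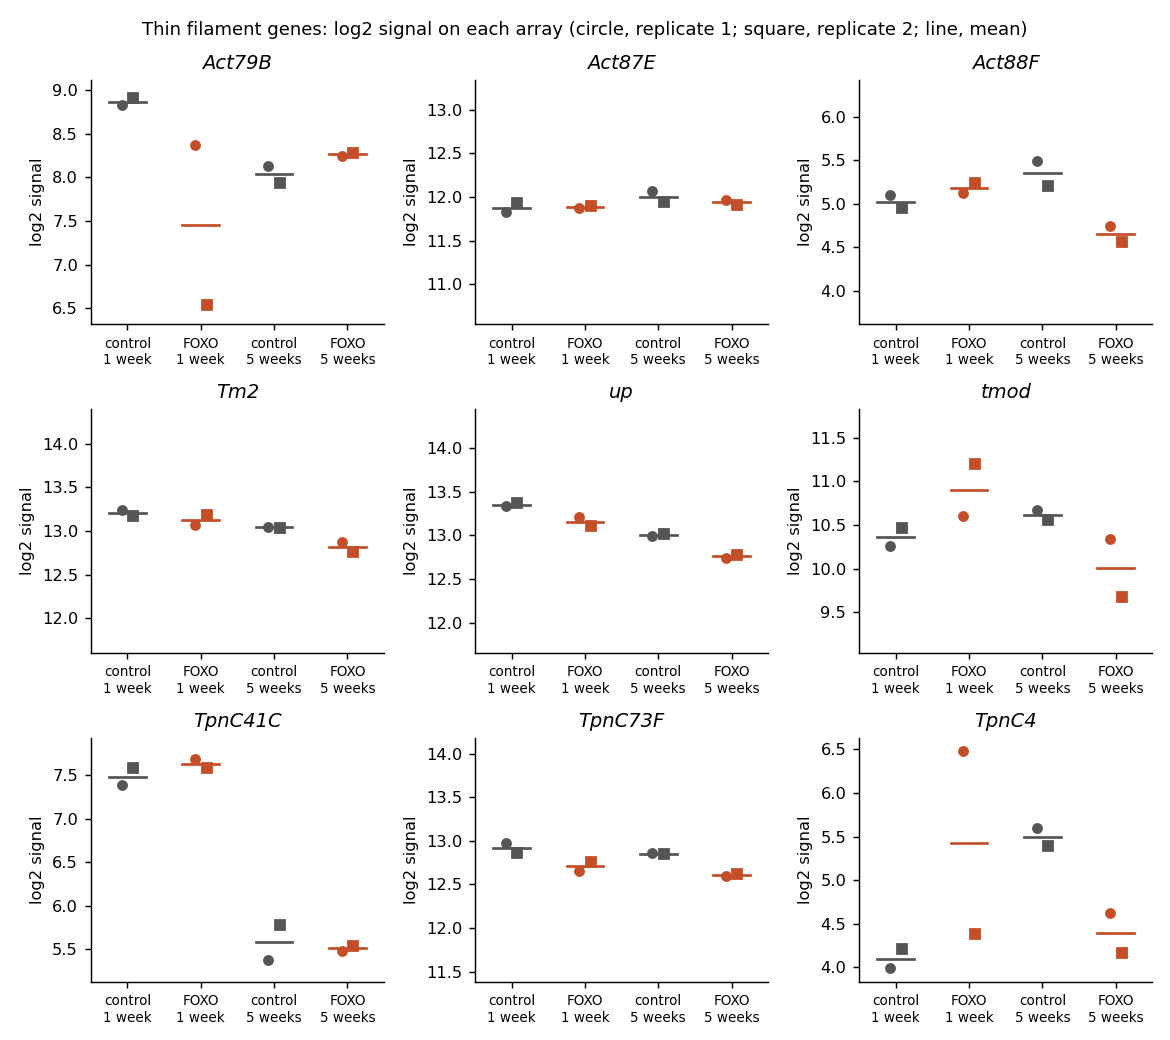
Log2 signal of the 9 thin filament genes on each array, by group (circle, replicate 1; square, replicate 2; line, group mean; every panel spans 2.8 log2 units). TpnC41C has the widest gap between the ages, up and Tm2 also separate them with small gaps, Act79B and TpnC4 split the FOXO 1 week replicates, and Act87E stays between 11.82 and 12.06.

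The pointed-end cap gene tmod has a pair of probe sets that moved in the same direction in some comparisons only. The brighter one read 10.26 and 10.47 in control 1 week, 10.60 and 11.19 in FOXO 1 week, 10.67 and 10.55 in control 5 weeks and 10.34 and 9.67 in FOXO 5 weeks. Replicates of the FOXO groups were 0.59 and 0.67 apart. Its age difference was 0.25 ± 0.28 in control (adjusted p = 0.747) and -0.89 ± 0.28 in FOXO hearts (adjusted p = 0.0794), and the difference between these, -1.13 ± 0.39, did not pass (adjusted p = 0.147).

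The dimmer tmod probe set read 7.35 and 7.30 in control 1 week, 6.76 and 7.27 in FOXO 1 week, 6.27 and 6.60 in control 5 weeks and 5.68 and 6.07 in FOXO 5 weeks. All old arrays lay under all young ones. With age it fell by 1.14 ± 0.23 in FOXO hearts (adjusted p = 0.0175) and stood at -0.89 ± 0.23 in control hearts (adjusted p = 0.0758). The control difference passed with the replicate block (adjusted p = 0.0437), with arrayWeights (0.00465), with the 4 compared arrays (0.00841) and without FOXO 1 week arrays (0.012), and missed the threshold under the other alternatives (up to 0.387). Over both crosses it fell by 1.01 ± 0.16 (adjusted p = 0.00993), which ended without control 1 week replicate 1 (0.0544) or control 5 weeks replicate 1 (0.0535). The call in FOXO hearts ended when FOXO 5 weeks replicate 1 was removed (adjusted p = 0.114), with arrayWeights (0.0597) and with the 4 arrays of the compared groups alone (0.107). In control hearts the probe sets of tmod pointed in opposite directions with age, though the interval of the brighter one, -0.41 to 0.91, spans 0. Both were lower with age in FOXO hearts. FOXO against control gave -0.60 ± 0.28 for the brighter and -0.56 ± 0.23 for the dimmer at 5 weeks. At 1 week it gave 0.53 ± 0.28 and -0.31 ± 0.23, and none of these passed by limma. The suffixes of the probe sets differ: s_at for the brighter, at for the dimmer.

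The dimmer probe set of TpnC73F read 7.38 and 7.31 in control 1 week, 6.95 and 7.30 in FOXO 1 week, 6.76 and 6.98 in control 5 weeks and 6.90 and 7.03 in FOXO 5 weeks. The age difference was -0.47 ± 0.17 in control (adjusted p = 0.193) and -0.16 ± 0.17 in FOXO hearts (adjusted p = 0.535), and the old control arrays lay under the young control arrays.

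**Figure D3:**
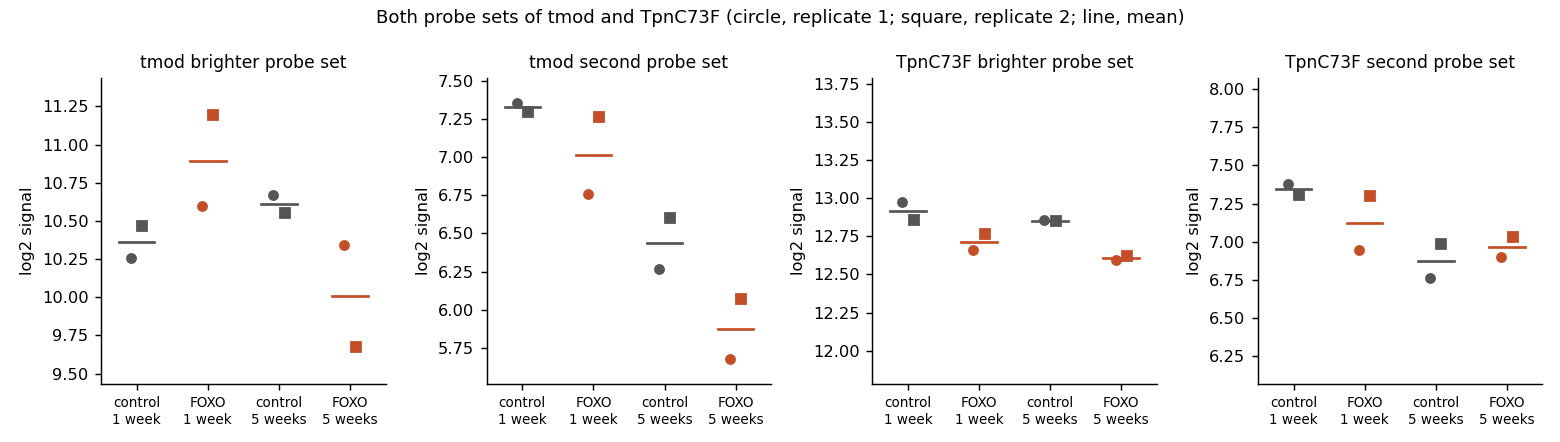
Log2 signal of both probe sets of tmod and of TpnC73F on each array, by group (circle, replicate 1; square, replicate 2; line, group mean; every panel spans 2 log2 units). The dimmer tmod probe set is lower on all 4 old arrays (5.68 to 6.60) than on the young ones (6.76 to 7.35), which the brighter one does not show.

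Read as a set, few of the 9 genes passed the test in any comparison. In FOXO against control at 1 week 0 of 9 passed by limma, with 1 at an unadjusted p under 0.05, beside 4.33% called over all 18769 probe sets, and the median difference was 0.00 beside 0.04 over all. At 5 weeks 1 of 9 passed, Act88F, beside 10.4% of all probe sets, and 8 of 9 were negative, beside 69.6% of all, with medians of -0.24 and -0.16. For age in control hearts 1 of 9 passed, TpnC41C, beside 6.91%, with medians of -0.06 and 0.05. For age in FOXO hearts 1 of 9 passed, TpnC41C again, beside 15.2%, with medians of -0.40 and -0.15. A count of 1 of 9 is near the background in each of these. With array medians centred, the number called was 6 at 5 weeks and 6 with age in FOXO hearts, all lower, beside 51.0% and 50.2% of all probe sets called under the same centring, of which 86.1% and 83.3% were lower.

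The change of the FOXO effect between ages passed for 0 of 9 members by limma, with 3 at an unadjusted p under 0.05, beside 9.41% of all probe sets. Over both crosses 2 of 9 fell with age, TpnC41C and up, beside 11.5%. In 3 of 9, TpnC41C, up and Tm2, all young arrays lay above all old ones, with gaps of 0.09 for up and 0.02 for Tm2. This held for 5.53% of all probe sets. In either direction, the ages separated in the same 3 of 9 and in 11.3% of all probe sets. FOXO against control at 5 weeks and age in FOXO hearts share the FOXO 5 weeks arrays, so their lower values are not separate evidence.

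**Figure D4:**
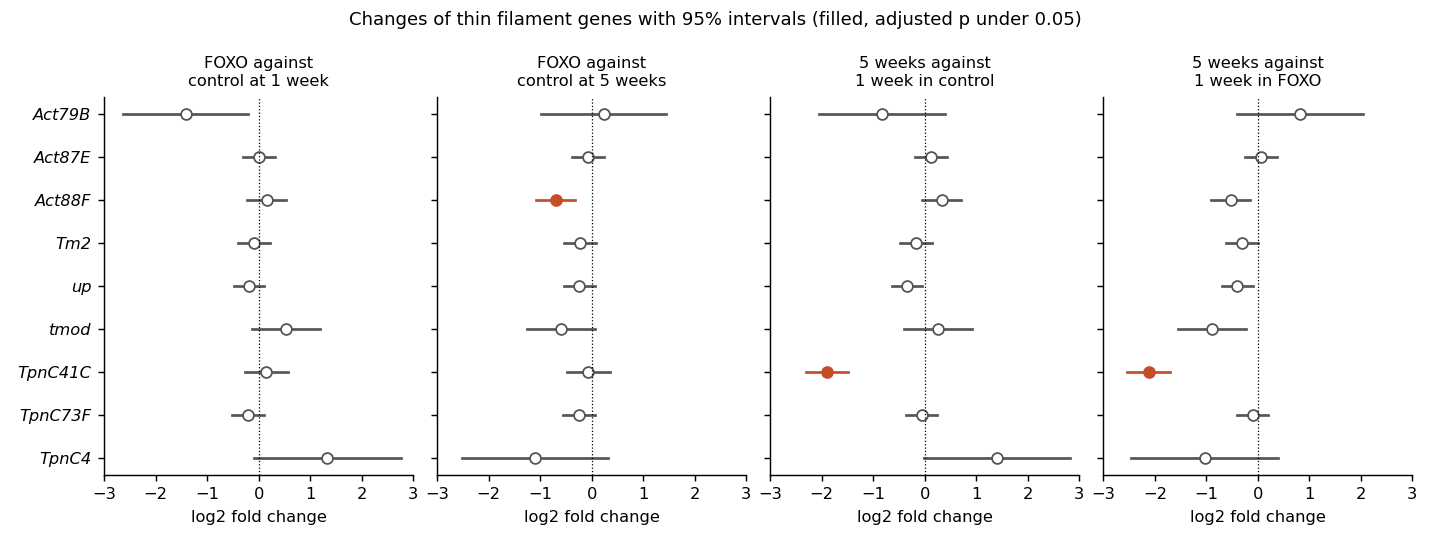
Log2 fold change (points) with its 95% interval (lines) for each of the 9 genes in the 4 comparisons of pairs of groups; filled points passed at an adjusted p under 0.05. The filled points are TpnC41C with age in both crosses (-1.90 and -2.12) and Act88F in FOXO against control at 5 weeks (-0.70).

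Other sarcomere genes were read from the same fit. In the thick filament and titin-like list, 1 of 8 measured genes fell with age in control hearts and 2 of 8 in FOXO hearts, beside 6.91% and 15.2% called over all probe sets, which for 8 genes is near the background. In each cross 7 of 8 were negative, beside 42.5% and 64.2% of all probe sets. The first was sls, the titin-like protein that links Z-disc and thick filament, whose signal was 11.19 and 11.02 in control 1 week and 9.99 and 10.05 in control 5 weeks, a fall by 1.08 ± 0.22 (adjusted p = 0.0297). In FOXO hearts sls fell by 0.93 ± 0.22 (adjusted p = 0.031), and Obsc, the giant obscurin of the M-line, fell by 0.93 ± 0.25 (adjusted p = 0.0487). Each of these 3 calls ended once any single array other than those of FOXO 1 week was removed, with adjusted p up to 0.219 for sls and 0.224 for Obsc. The calls in FOXO hearts also ended with arrayWeights (0.0852 and 0.0849) and with the 4 compared arrays alone (0.164 and 0.209). Obsc read 11.96 and 11.88 in control 1 week and 10.99 on both control 5 weeks arrays. In FOXO hearts Obsc read 11.06 and 11.79 at 1 week and 10.33 and 10.66 at 5 weeks. FOXO 1 week replicate 1 was thus nearer to the old control arrays, and replicate 2 to the young ones.

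Of 6 Z-disc genes 1 fell with age in control hearts, beside 6.91% of all probe sets. It was Actn, the alpha-actinin that anchors the thin filament, from 11.90 and 11.74 to 11.17 and 11.10, by 0.68 ± 0.14 (adjusted p = 0.0359). None of the 6 passed by limma in FOXO hearts, where Actn stood at -0.44 ± 0.14 (adjusted p = 0.0859), and the difference between crosses was 0.24 ± 0.20 (adjusted p = 0.503). The control call ended with the removal of any single array outside FOXO 1 week (adjusted p up to 0.281), with array medians centred (0.0747) and with the replicate block (0.0601).

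Of 8 further thin filament genes 1 was measured, sals, which promotes filament growth at the pointed end. Its age difference was -0.72 ± 0.25 in control (adjusted p = 0.181) and -0.76 ± 0.25 in FOXO hearts (adjusted p = 0.0942), and over both crosses it fell by 0.74 ± 0.18 (adjusted p = 0.0437), a call lost with quantile normalization (0.0547) and with the removal of any single array outside FOXO 1 week (up to 0.153). On the arrays sals read 11.04 and 10.99 in control 1 week and 10.26 and 10.31 in control 5 weeks. In FOXO hearts sals read 10.19 and 10.997 at 1 week and 9.75 and 9.92 at 5 weeks. FOXO 1 week replicate 1, with high female-specific transcripts, thus lay under the old control arrays. Replicate 2, with low ones, lay within the young control range. The part of these transcripts in the sals and Obsc values was not tested. Act57B, Act5C, Act42A, Tm1, wupA, TpnC25D and TpnC47D were not analysed here. Of 9 actin regulators 0 passed in any of the 5 main comparisons by limma, and the capping protein gene cpb came closest with 0.50 ± 0.14 for age in control hearts (adjusted p = 0.0851).

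Of 6 heart factors 1 fell with age in FOXO hearts, near the 15.2% of all probe sets. It was mid, a T-box gene of cardiac cells, by 1.09 ± 0.23 (adjusted p = 0.0209), a call that ended with the removal of FOXO 5 weeks replicate 2 (0.118), with arrayWeights (0.129) and with the 4 compared arrays alone (0.0839). In control hearts mid stood at -0.82 ± 0.23 (adjusted p = 0.102). The median of the 6 heart factors was 10.66 and 10.60 in control 1 week, 9.63 and 10.38 in FOXO 1 week, 9.99 and 9.80 in control 5 weeks and 9.72 and 9.64 in FOXO 5 weeks. This median was thus lower on the old control arrays, and the old FOXO arrays lay within the range of the young ones. The list was split with age in control hearts. The means of mid (8.57 to 7.75), H15 (10.98 to 9.99) and tup (10.45 to 9.79) were lower at 5 weeks. Those of Hand (13.14 to 13.25), svp (10.81 to 11.01) and pnr (6.87 to 7.04) were higher. In FOXO hearts 4 of 6 were lower and 2 higher. The part of these heart factor differences in the falls of TpnC41C, sls, Obsc and Actn was not tested.

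**Figure D5:**
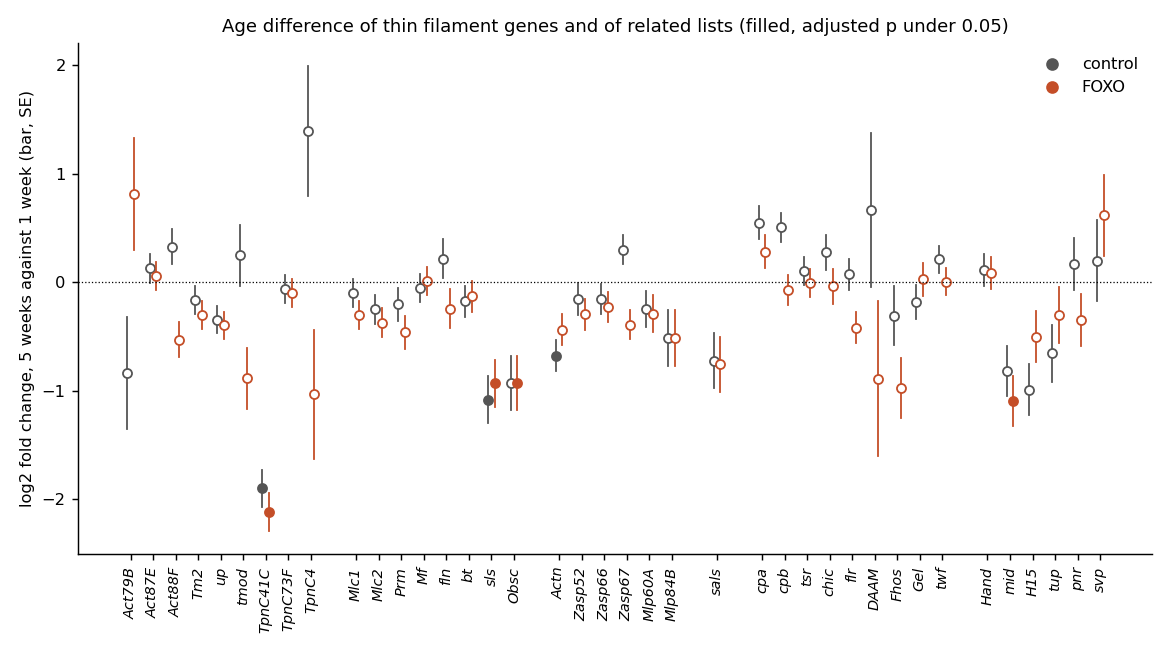
Log2 fold change of 5 weeks against 1 week (points) with its SE (lines) for the 9 thin filament genes and, to their right, thick filament, Z-disc, further thin filament, actin regulator and heart factor genes, in control and FOXO hearts; filled points passed at an adjusted p under 0.05. TpnC41C has the largest fall of the genes drawn (-1.90 and -2.12), followed among those that passed by sls (-1.08) and mid (-1.09).

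The genes whose pattern over the 8 arrays was most like that of a member were taken for the 4 members with an SD over all arrays of at least 0.3, as a description by Pearson correlation. For TpnC41C these were serp (0.988) and Cox10 (0.987): serp read 8.24, 8.12, 8.17 and 8.15 on the young arrays and 7.10, 7.23, 6.99 and 7.18 on the old ones. For TpnC4 they were dpr18 (0.985) and CG6051 (0.982), for tmod NAAT1 (0.977) and CG13837 (0.967), and for Act79B PolrMT (0.918) and mr (0.914). All arrays are shared by each pair, and for TpnC4 and Act79B 1 array of FOXO 1 week carries much of the range.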

How the data were processed

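The authors deposited 1 log2 value per probe set and array, between 2.14 and 14.1 over the 18769 non-control probe sets used. That the scale is log2 follows from the range of the values. Background correction, summarisation and normalization between arrays have no description that could be used here; limma is named in the submitters' processing notes, without a version. The table holds no spot intensities, so background could not be redone, and 2 arrays a group limit the precision.

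Of 18952 probe sets 183 controls were left out. A model with 1 mean per group (4 residual degrees of freedom) was fitted to all probe sets with limma 3.58.1 in R 4.3.3, two-sided, with Benjamini-Hochberg adjustment over all of them and a threshold of 0.05. Levels are given per array, and SE, adjusted p and 95% intervals come from this fit. With 2 arrays against 2, an exact permutation test cannot go below p = 0.333 and was not used. The procedure was tested on simulated data in which each probe set had the same spread in all 4 groups. That setting does not cover the wider spread of the FOXO 1 week pair.

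The members, the related lists and the markers were chosen with earlier results of these data known. Named were all 9 members and, per related list, up to 4 called genes with the smallest p (else the 1 with the smallest), plus, per member with an SD of at least 0.3, the 2 genes most correlated with it. Symbols came from the platform annotation, and list names were updated through RefSeq synonyms where 1 gene matched. Alternatives were quantile normalization, centred medians, leaving out the dimmest 40%, eBayes with trend and robust, arrayWeights, a replicate block, the 4 compared arrays alone, the fit without FOXO 1 week, the mean of a gene's probe sets and each array left out. The comparison over both crosses was added after seeing the data.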

Additional observations from a re-analysis of the deposited data

How the results depend on the processing

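The fall of TpnC41C with age kept its direction and passed under every alternative, between -2.10 and -1.70 in control and between -2.46 and -2.07 in FOXO hearts. The number of the 9 members called moved more. In FOXO against control at 1 week (0) it was 0 to 2 with 1 array left out. At 5 weeks (1) it was 6 with centred medians, 0 without dim probe sets, where Act88F was not tested, and 2 with arrayWeights, with the 4 compared arrays or without both FOXO 1 week arrays, and 0 to 2 with 1 array left out. For age in control hearts (1) it was 2 with trend and robust, 4 with arrayWeights, 3 with the 4 compared arrays or without both FOXO 1 week arrays, and 1 to 3 with 1 array left out. For age in FOXO hearts (1) it was 2 with quantile normalization, with trend and robust or with the mean of the probe sets, 6 with centred medians and 1 to 3 with 1 array left out. For the difference between ages (0) it was 1 with quantile normalization or arrayWeights, 7 with centred medians and 0 to 4 with 1 array left out. Over both crosses (2) it was 1 with arrayWeights or the replicate block, 3 with the mean of the probe sets, where tmod joined (-0.67, adjusted p = 0.0272), and 1 to 4 with 1 array left out. Among single arrays left out, one of FOXO 1 week gave the highest count in each comparison. In every comparison, leaving out either FOXO 1 week array also called more of all probe sets than leaving out any other array. The higher member counts thus stand beside a larger share of all probe sets called. Each fit with 1 array left out leaves a group of 1 array, which adds nothing to the estimate of spread. Comparisons that do not use FOXO 1 week therefore came out the same without replicate 1, replicate 2 or both. In those that use it the effect sizes moved as well, and the cause was not tested. Centring moved the median of all probe sets from -0.16 to -0.52 at 5 weeks, from -0.15 to -0.49 with age in FOXO hearts and from -0.22 to -0.72 in the difference, relative to which the members' medians of -0.61, -0.74 and -0.64 stand. With centring, 51.0%, 50.2% and 47.9% of all probe sets were called in these comparisons. In the difference 12.7% were called with quantile normalization and 9.29% with arrayWeights. Over alternatives that tested all probe sets, those called ranged from 274 to 5377 of 18769 (813 as reported), 1368 to 9573 (1956), 605 to 3681 (1297), 1421 to 9415 (2861) and 1322 to 8997 (1766), in the order of the comparisons above. Without dim probe sets, 1152 of 11261 were called at 5 weeks and 1082 in the difference. Other shares of all probe sets called stand beside the member counts. At 5 weeks they were 17.8% with arrayWeights, 18.0% with the 4 compared arrays and 22.8% without both FOXO 1 week arrays. For age in control hearts they were 19.6%, 19.3% and 17.5% in the same order, and 7.19% with trend and robust. For age in FOXO hearts they were 18.0% with quantile normalization, 15.5% with trend and robust and 15.2% with the mean of the probe sets. Over both crosses they were 11.3% with arrayWeights, 10.7% with the replicate block and 11.5% with the mean of the probe sets.

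The following signs turned. With centred medians Tm2 gave 0.048 in FOXO against control at 1 week, Act79B -0.13 at 5 weeks, TpnC73F 0.10 with age in control and Act87E -0.28 with age in FOXO hearts. The dimmer TpnC73F probe set gave -0.22 and -0.27 at 5 weeks, and -0.062 and -0.19 in the difference, with quantile normalization and centred medians. The mean of the probe sets gave -0.32 for tmod with age in control and 0.14 for TpnC73F in the difference. Quantile normalization gave 0.013 for Act79B over both crosses. With 1 array left out Act87E ranged from -0.048 to 0.058 at 1 week, TpnC41C from -0.27 to 0.14 and the dimmer TpnC73F probe set from -0.019 to 0.20 at 5 weeks. With age in FOXO hearts Act79B ranged from -0.11 to 1.73, TpnC4 from -2.08 to 0.015 and the dimmer TpnC73F probe set from -0.34 to 0.016. In the difference TpnC73F ranged from -0.098 to 0.020 and the dimmer tmod probe set from -0.50 to 0.0035, and over both crosses Act79B from -0.47 to 0.45 and TpnC4 from -0.35 to 0.70.

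Same-numbered arrays of different groups deviated together with correlations of 0.01 to 0.33, so the numbers were not taken as pairs. With the replicate block Act88F at 5 weeks had an adjusted p of 0.0427 and TpnC41C with age in control of 0.00245. The number called in FOXO against control at 1 week stayed 0.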
